A study of Solanum lycopersicum with 2 samples.

Results

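In 119 tomato genes the highest read peak took a part of the gene's 3' end reads that differed by at least 10 percentage points between a library from anthers and one from young leaves. These genes were chosen by that measure itself. For each gene the height of the highest peak was divided by the number of reads on the gene, and the result, in percent, is called the peak share. A gene was eligible with at least 100 reads in both libraries, a whole number of reads in both and, in both, a peak that did not exceed the reads. Of 25923 genes listed in either library, 5544 were eligible, and 119 of these (2.15%) had peak shares at least 10 percentage points apart. The size and direction of these differences are therefore a description of the choice, and no test was applied to them.

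A messenger RNA ends where the nascent transcript is cut and a poly(A) tail is added, and many plant genes have more than one such place. Use of one place rather than another changes the length of the 3' untranslated region and with it the sites that RNA-binding proteins and small RNAs can reach. A method that reads the 3' end can give a sharper pile of reads when most transcripts end together than when they end at several places. In the method used here a read comes from the last stretch of a transcript and not necessarily from its very end. Transcripts that end together can then also give spread reads, so a low peak share does not by itself show several ends. The peak share can move with a change in the places used, but it is not a map of ends. The files give neither the position nor the width of the peak. The highest peak of a gene may therefore lie at different places in the anther and leaf libraries.

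The samples were anthers, the part of the flower in which pollen forms, and young leaves, both from untreated plants of Solanum lycopersicum, cultivar Moneymaker, kept in a glasshouse with 16 h of light and 8 h of darkness. The plants were 8 weeks old, and the anthers were of several developmental stages in 1 sample. Poly(A) RNA was profiled by MACE (massive analysis of cDNA ends), in which a transcript is meant to give 1 read from its last 500 bases. There was 1 library per tissue, with 12411606 mapped reads from anthers and 11534512 from leaves, so there is no replicate check and all differences are between these libraries. The files pair no identifier with a gene name, and 0 identifiers matched the RefSeq genes of assembly SLM_r2.1. The roles of the genes are therefore not given, and the tissue labels were not checked against marker genes. Identifiers are printed for the 2 genes with the largest difference in each direction.

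Both directions were about equally common among the 119 genes. The peak share was higher in the anther library for 53 genes (0.956% of eligible genes) and higher in the leaf library for 66 (1.19%). Most of the differences were small. The median difference was 12.2 points, 56 of the genes lay between 10 and 12 points, 37 between 12 and 15, 16 between 15 and 20, 5 between 20 and 30, and 5 at 30 points or more. Over all eligible genes the median absolute difference was 2.01 points. Across the 5544 genes, which share the same pair of libraries, the peak shares of the tissues were related with a Pearson r of 0.90 (Spearman rho 0.78).

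**Figure D1:**
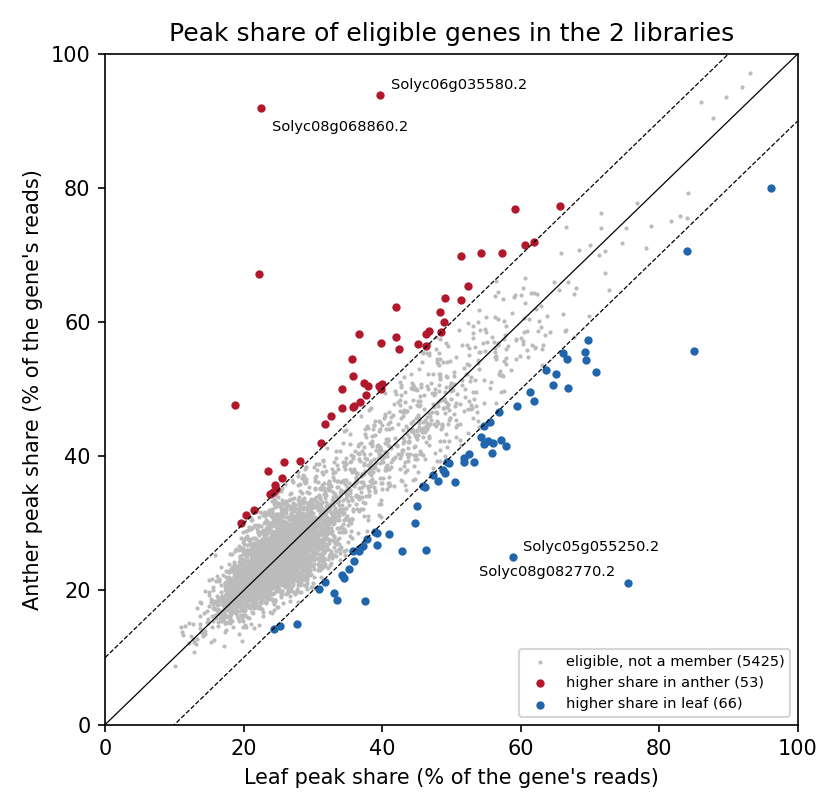
Peak share in the anther library (vertical axis, percent of the gene's reads) against the leaf library (horizontal axis, percent) for 5544 eligible genes, 1 point per gene. The solid line marks equal shares and the dashed lines 10 points above and below, so that the 53 red and 66 blue points lie outside them by the choice of genes. Most coloured points sit close to a dashed line, and a few stand far from it.

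The largest difference belonged to Solyc08g068860.2 on chromosome 8. In the anther library its peak held 114 of 124 reads, a peak share of 91.9% with a 95% Wilson interval of 85.8% to 95.6%. Among 195 leaf reads the peak held 44, which is 22.6% (17.3% to 28.9%). The gene thus had nearly all anther reads in the peak and most leaf reads outside it, and the shares were 69.4 points apart with a 95% Newcombe interval of 60.5 to 75.8. Its level was 9.99 RPM (reads per 1000000 mapped reads) in anther and 16.9 RPM in leaf, 1.69-fold higher in leaf. The peak alone was 2.41-fold higher in anther (9.18 against 3.81 RPM), while the other reads were 16.2-fold higher in leaf (0.806 against 13.1 RPM, the former from 10 reads). The height of the highest peak and the number of remaining reads thus differed in opposite directions at a modest difference in total level. Whether the highest peak was the same place in both libraries is not known. The Wilson and Newcombe intervals, like all others here, cover counting error only, and treat the peak as a part of the gene's own reads. A listed gene on the same strand, 10 identifier numbers away, had 2.58 RPM in anther and 56.5 RPM in leaf. Whether any of its reads entered the counts of Solyc08g068860.2 was not tested.

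Solyc06g035580.2 on chromosome 6 had the second largest difference towards the anther. Its peak held 1957.5 of 2086 reads in the anther library, a share of 93.8% (92.7% to 94.8%), and 110 of 277 reads, or 39.7% (34.1% to 45.6%), in the leaf library. The difference was 54.1 points (48.2 to 59.8). The level was 168 RPM in anther and 24.0 RPM in leaf, 7.0-fold higher in anther, and only the peak was higher there. The peak was 16.5-fold higher in anther (158 against 9.54 RPM), while the other reads were 1.40-fold higher in leaf, with 10.4 RPM in anther and 14.5 RPM in leaf. The anther peak height was fractional although the gene's reads were whole, which was so in 1 or both libraries for 3 of the 119 genes and 24 of the 5544 (0.433%).

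The largest difference towards the leaf was that of Solyc08g082770.2 on chromosome 8. Its peak held 385 of 1818 reads in the anther library, a share of 21.2% (19.4% to 23.1%), and 77 of 102 reads, or 75.5% (66.3% to 82.8%), in the leaf library. The shares were 54.3 points apart (44.9 to 61.9). The anther share was close to the median of all eligible genes, 25.1% in each library, and the leaf share was the unusual value. The level was 146 RPM in anther and 8.84 RPM in leaf, 16.6-fold higher in anther. The peak was 4.65-fold higher in anther and the other reads were 53.3-fold higher (115 against 2.17 RPM, the latter from 25 reads). A listed gene on the same strand, 20 identifier numbers away, had 5.72 RPM in anther and 51.3 RPM in leaf. Whether any of its reads entered the counts of Solyc08g082770.2 was not tested.

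Solyc05g055250.2 on chromosome 5 came next towards the leaf, with a share of 25% in the anther library (553 of 2212 reads, 23.2% to 26.8%) and 58.9% in the leaf library (146 of 248 reads, 52.7% to 64.8%). The difference was 33.9 points (27.4 to 40.1). Its level was 178 RPM in anther and 21.5 RPM in leaf, 8.29-fold higher in anther, with the peak 3.52-fold and the other reads 15.1-fold higher. Its leaf peak of 146 had exactly the height of the peak listed for a neighbouring gene on the same strand with 510.5 leaf reads. Whether both entries describe the same pile of reads was not tested, and the leaf share of this gene is uncertain for that reason.

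**Figure D2:**
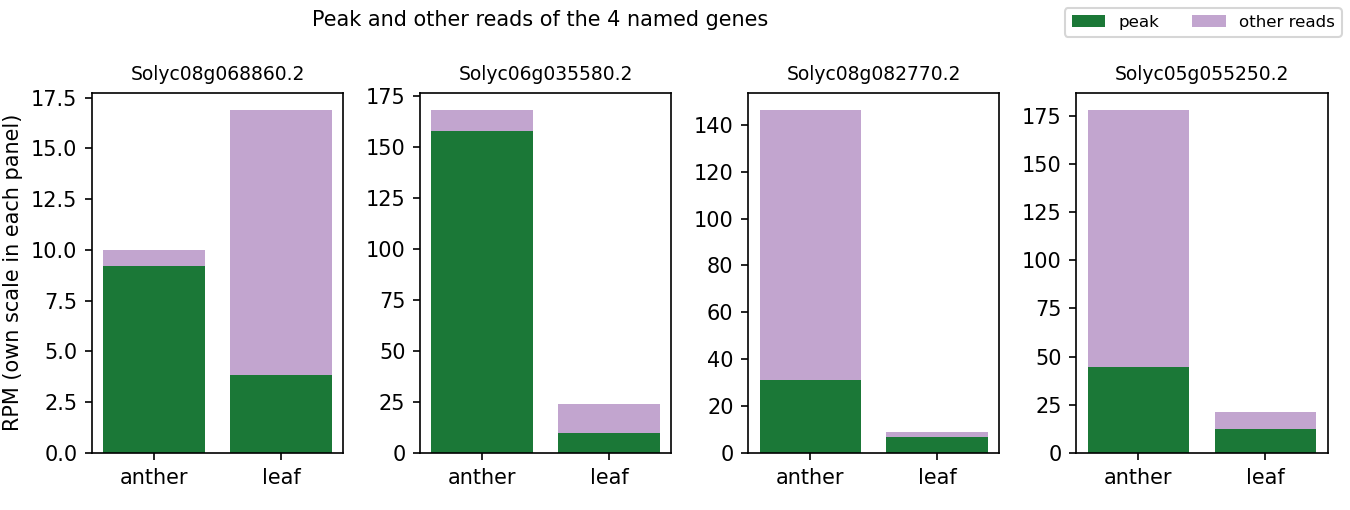
Level of the 4 genes with the largest peak share differences, in RPM on a separate linear scale in each panel, as stacked bars of the peak (green) and the other reads (purple), 1 library per bar. In Solyc08g068860.2 and Solyc06g035580.2 the peak fills nearly all of the anther bar, and in Solyc08g082770.2 and Solyc05g055250.2 it fills most of the leaf bar.

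A further gene, on chromosome 1, completed the 5 genes at 30 points or more. Its peak held 88 of 131 reads in anther (67.2%) and 46 of 207 reads in leaf (22.2%), 45.0 points apart (34.5 to 54.0). Its peak was 1.78-fold higher in anther and its other reads were 4.03-fold higher in leaf, the same crossing as in Solyc08g068860.2. A gene on chromosome 2 had 60.5 of 127 reads in the anther peak (47.6%) and 63 of 335 in the leaf peak (18.8%), 28.8 points apart (19.2 to 38.3). A gene on chromosome 4 had 88 of 158 reads in the anther peak (55.7%) and 97 of 114 in the leaf peak (85.1%), 29.4 points apart (18.6 to 38.9).

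These 7 genes and one more were the only members whose 95% interval lay wholly beyond 10 points, 8 of 119 against 8 of 5544 eligible genes (0.144%), 4 in each direction. The eighth was a strongly leaf-biased gene on chromosome 3, with 30.9 RPM in anther and 595 RPM in leaf. Its peak held 71 of 383 reads in anther (18.5%) and 2294 of 6864 reads in leaf (33.4%), 14.9 points apart (10.5 to 18.6). Its difference was far smaller than that of the other 7, and its interval was narrow at this depth.

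The median difference of the members, 12.2 points, was not much above the median half-width of their 95% intervals. The median half-width of the interval was 10.2 points among the 119 genes and 6.94 points among all eligible genes. The interval lay wholly to one side of 0 for 92 of the 119 genes, 40 with the higher share in anther and 52 in leaf, and it reached 0 for 27. Over all eligible genes it lay to one side of 0 for 307 (5.54%). By construction a 95% interval does so for about 5% of genes with equal shares, independent reads and a peak at a place fixed beforehand. How the highest peak was picked in each library is not stated, so the 5% need not hold here. The 92 genes were picked for a large difference, so their intervals support nothing beyond the description.

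The share of genes that were members fell steeply with read number. Of the 1300 eligible genes with 100 to under 150 reads in the library with fewer reads, 74 (5.69%) were members. The percentage was 2.42% from 150 reads, 0.987% from 200, 0.763% from 300, 0.426% from 500 and 0.215%, 1 of 466 genes, at 1000 reads or more. The median smaller read number was 129 among members and 241 among all eligible genes. From 300 reads upwards in the smaller library, 12 of 2219 eligible genes (0.541%) were members. Their differences lay between 10.01 and 14.88 points, 5 towards anther and 7 towards leaf. The interval of each lay to one side of 0. The choice fixed this, since at this depth an interval reaches less than 10 points to either side of the difference. The member with the most reads in its smaller library had 149 of 1015 reads in the anther peak (14.7%) and 1124 of 4449 in the leaf peak (25.3%).

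At the threshold itself members and other genes were alike. The members just inside it had differences of 10.01 and 10.05 points towards anther and 10.01 and 10.14 points towards leaf. The eligible genes just outside had 9.996 and 9.990 points towards anther and 9.863 and 9.862 points towards leaf. In all, 36 members lay within 1 point above the threshold and 44 eligible genes within 1 point below it.

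**Figure D3:**
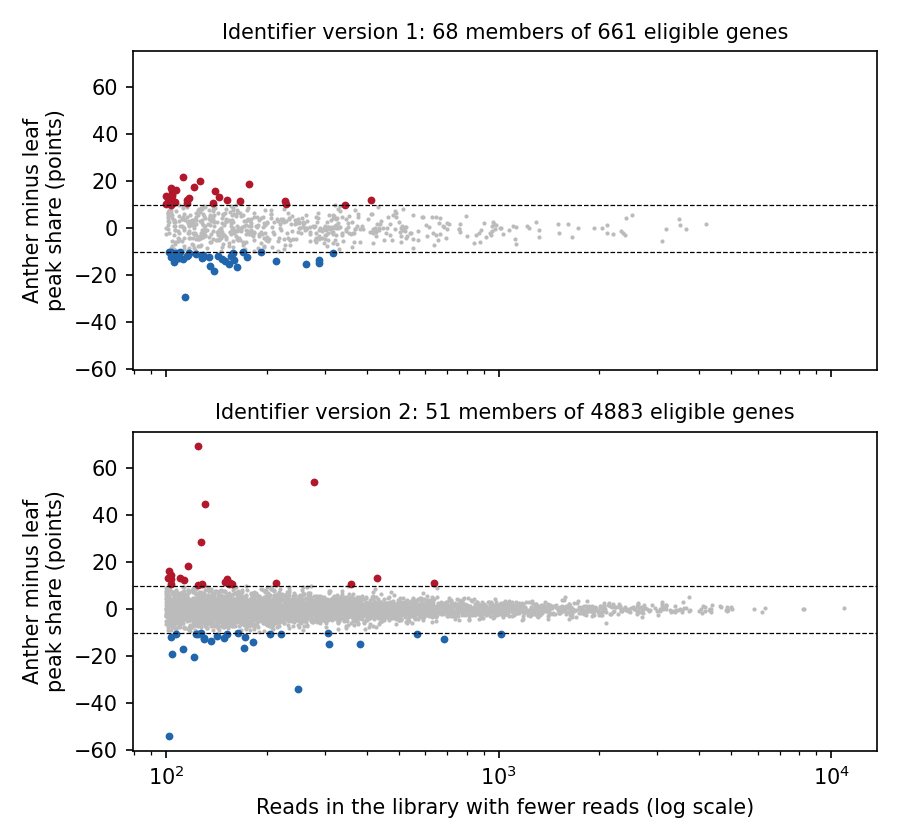
Anther minus leaf peak share in percentage points (vertical axis) against the reads in the library with fewer reads (horizontal axis, log scale), for eligible genes with identifier version 1 (upper panel) and version 2 (lower panel). Dashed lines mark 10 points in either direction, and red and blue points are members with the higher share in anther and leaf. Members crowd at the left, and version 1 genes scatter more widely than version 2 genes. The 5 differences of 30 points or more are all in the lower panel, which holds most of the eligible genes.

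The members differed from the other eligible genes in the version of their gene model, which is the number after the point in the identifier and was not used in the choice. Version 1 models made up 68 of the 119 members (57.1%) and 661 of the 5544 eligible genes (11.9%). Put the other way, 10.3% of version 1 genes and 1.04% of version 2 genes were members. Version 1 genes also had higher peak shares, with a median of 44.8% in anther and 45.3% in leaf, against 24.5% and 24.6% for version 2 genes, and fewer reads, with a median smaller read number of 181 against 249. In each band of read number below 500 reads version 1 genes were more often members. With 100 to under 150 reads in the smaller library 19.7% of version 1 genes and 2.54% of version 2 genes were members, from 150 reads 9.76% and 1.27%, from 200 reads 6 of 100 genes and 0.493%, and from 300 to under 500 reads 2.94% and 0.529%. From 500 reads 0 of 97 version 1 genes and 4 of 1074 version 2 genes were members. In the bands of higher mean peak share version 1 genes were not more often members: of genes with a mean share of 30% to 40%, 4 of 155 version 1 genes (2.58%) and 19 of 394 version 2 genes (4.82%) were members, of genes with a mean share of 40% to 50%, 31 of 254 version 1 genes (12.2%) and 10 of 56 version 2 genes (17.9%) were members, and at 50% or more 33 of 205 (16.1%) and 5 of 20. The mean share is made of the values that chose the members, so these bands are a description.

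Members of each version were also set beside the eligible genes of that version. The 5 genes at 30 points or more were all version 2 models, as were 4883 of the 5544 eligible genes. Of the 8 genes whose interval lay wholly beyond 10 points, 7 were version 2 models (0.143% of eligible version 2 genes, against 0.151%, 1 gene, of version 1). Both counts were near the part that version 2 models made up of eligible genes. The interval lay to one side of 0 for 46 of the 51 version 2 members, and for 215 of all 4883 eligible version 2 genes (4.40%). It did so for 46 of the 68 version 1 members, and for 92 of all 661 eligible version 1 genes (13.9%). Among version 1 members the largest difference was 29.4 points. The direction was alike, with 30 of 68 version 1 members and 23 of 51 version 2 members higher in anther.

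Members were spread over all 12 chromosomes, with a marked excess on the last 3. Chromosomes 10, 11 and 12 held 41 of the 119 members (34.5%) and 522 of the 5544 eligible genes (9.42%). On chromosome 12, 17 of 150 eligible genes (11.3%) were members, on chromosome 11, 12 of 145 (8.28%), and on chromosome 10, 12 of 227 (5.29%). On chromosomes 1 to 9 the percentage ran from 0.882% on chromosome 1 to 2.68% on chromosome 7. Version 1 models made up 96.6% of the eligible genes of chromosome 11 and 99.3% of those of chromosome 12, against 0 of 907 on chromosome 1. Within version 1 models 29 of 289 genes on chromosomes 11 and 12 and 39 of 372 on the other chromosomes (10.5%) were members, so that the excess on chromosomes 11 and 12 was not seen within this version. On chromosome 10, where version 1 models made up 49.3% of eligible genes, 9 of 112 version 1 genes (8.04%) and 3 of 115 version 2 genes (2.61%) were members, against 11.5% and 1.01% on chromosomes 0 to 9.

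**Figure D4:**
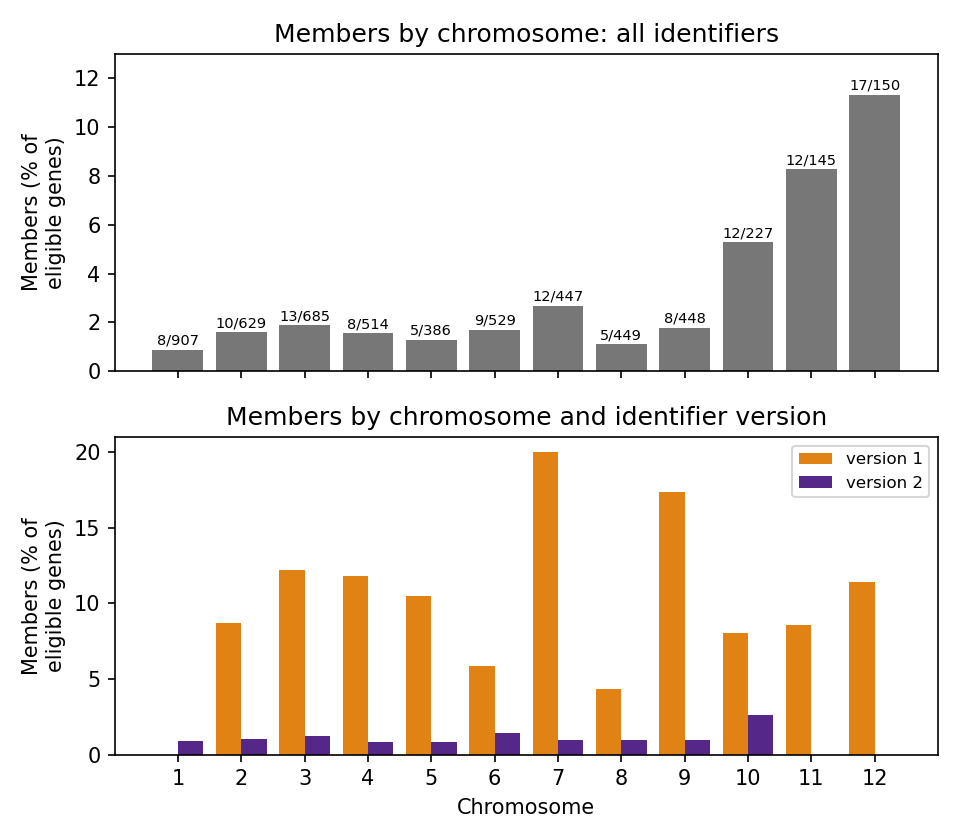
Members as a percentage of eligible genes on chromosomes 1 to 12 for all identifiers, with the numbers above the bars (upper panel), and by identifier version (lower panel). Chromosomes 10 to 12 stand above the others in the upper panel, while in the lower panel version 1 genes on chromosomes 11 and 12 (8.57% and 11.4%) fall within the range of version 1 genes elsewhere. Chromosome 1 had no eligible version 1 gene, and chromosomes 11 and 12 had 5 and 1 eligible version 2 genes, of which 0 were members.

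Over all members 55.5% had the higher share in leaf. The most uneven chromosomes, on small numbers, had 10 of 12 members higher in leaf (chromosome 11), 11 of 17 (12), 6 of 8 (9) and 1 of 5 (5). Members were evenly split on chromosomes 1, 2 and 4, and nearly so on chromosomes 3, 6, 7, 8 and 10. By strand, 64 members (53.8%) lay on the strand written as wat, against 50.8% of eligible genes. No members were close neighbours, since the smallest gap between the identifier numbers of any pair was 50, where adjacent genes usually differ by 10.

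At the main settings members were not more often at least 2-fold apart in level than other eligible genes. Of the 119 members 28 (23.5%) were at least 2-fold apart in RPM, against 27.7% of eligible genes. Of these, 16 were higher in anther (12.0% of eligible genes were) and 12 in leaf (15.8%). The median log2 ratio of anther to leaf RPM was -0.02 among members and 0.04 among all eligible genes. Members were expressed at lower levels, with medians of 12.7 RPM in anther and 13.5 RPM in leaf against 26.3 and 26.8 RPM. At least 10-fold differences in level were found in 6 members (5.04%), against 1.48% of eligible genes.

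In members, as in eligible genes generally, the higher share was more often in the tissue with less of the transcript. The peak share was higher in the library with the lower RPM for 73 of the 119 members (61.3%), against 56.3% of eligible genes. Among genes at least 2-fold apart in RPM this held for 20 of 28 members (71.4%) against 60.6%, among genes less than 2-fold apart for 53 of 91 (58.2%) against 54.6%, and among genes at least 10-fold apart for 5 of 6 members against 70.7%. Of the 53 members with the higher share in anther, 34 had the higher RPM in leaf, and of the 66 with the higher share in leaf, 39 had the higher RPM in anther. Across genes of the same pair of libraries, the share difference and the log2 ratio of RPM gave a Spearman rho of -0.25 over the 119 members and -0.18 over the 5544 eligible genes. The read number enters both measures, and its part in the relation was not tested.

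The most unequal levels among members were those of a version 1 gene on chromosome 2, with 2481 RPM in anther and 13 RPM in leaf, 191-fold higher in anther. Its peak held 15589 of 30791 reads in anther (50.6%) and 97 of 150 reads in leaf (64.7%), 14.04 points apart (6.09 to 21.3). A version 1 gene on chromosome 4 had 1127 RPM in anther and 9.71 RPM in leaf, with peak shares of 42.2% and 55.4%, 13.1 points apart (3.87 to 22.0). On the leaf side a version 1 gene on chromosome 12 had 33.1 RPM in anther and 511 RPM in leaf, 15.4-fold higher in leaf. Its peak share was 58.6% in anther (241 of 411 reads) and 46.7% in leaf (2753 of 5895 reads), 11.9 points apart (6.95 to 16.8). In each of these 3 genes the tissue with the scarce transcript had the higher share. The strongly leaf-biased gene on chromosome 3 described above was the exception among the 6, with 19.3-fold more in leaf and the higher share there too.

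The reads of each gene were split into its highest peak and the other reads, although the highest peak may lie at different places in the tissues. For 53 of the 119 members (44.5%) the peak was higher in one tissue and the other reads in the other tissue, against 9.88% of all eligible genes. A member is favoured for this by the choice, since equal changes of both parts leave the share unchanged. Of the 53 members with the higher share in anther, 23 had the peak higher in anther and the other reads higher in leaf, 23 had both higher in leaf and 7 had both higher in anther. Of the 66 with the higher share in leaf, 30 had the peak higher in leaf and the other reads higher in anther, 20 had both higher in anther and 16 had both higher in leaf. The peak differed more than the other reads, on the log2 RPM scale, in 48 members (40.3%) and the other reads differed more in 71, against 45.9% with the larger peak difference among eligible genes. The other reads were at least 2-fold apart in 43 members (36.1%) and the peak in 31 (26.1%), against 28.7% and 27.6% of eligible genes.

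**Figure D5:**
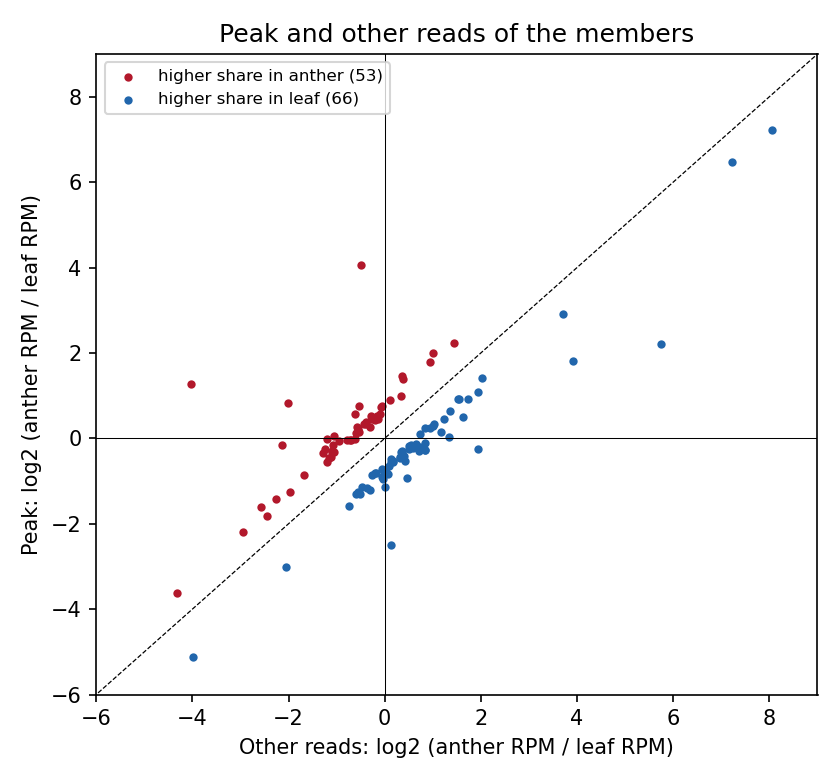
Log2 ratio of anther to leaf RPM for the peak (vertical axis) against the same ratio for the other reads (horizontal axis), 1 point per member. Red points (higher share in anther) lie above the dashed line of equal ratios and blue points (higher share in leaf) below it by the choice of genes. The upper left part holds 23 red points and the lower right part 30 blue points, for which peak and other reads were higher in different tissues. The highest peak of a gene may lie at different places in the tissues.

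Some listed peaks had the same height as the peak of a gene nearby. Among the 119 members, 4 (3.36%) had in 1 library a peak equal in height to that of a listed gene on the same strand within 20 identifier numbers, against 80 of 5544 eligible genes (1.44%). Small heights can coincide. A shared height of at least 100 was found for 16 of 5544 eligible genes (0.289%), and for 2 of the 4 members (1.68% of the 119). One was Solyc05g055250.2, described above. The other was the gene with 149 of 1015 anther reads in its peak, whose neighbour had the same peak height from 89 reads of its own. Without these 4 genes, 115 members were left, 51 higher in anther and 64 in leaf. Neighbours of higher RPM, in at least 1 library, flanked 61 members (51.3%) and 45.2% of eligible genes, and a neighbour on the other strand was listed for 92 members (77.3%) and 72.6% of eligible genes.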

How the data were processed

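For 1 anther and 1 leaf library the authors deposited, per gene, estimated counts of reads, a scaled value and the highest peak, beside the mapped reads of the library, per the file headers. The scaled value deposited by the authors equalled reads divided by mapped reads times 1000000 within 3.42e-08 and is called RPM here. The deposited peak height is a signal value, and the file headers do not say how the authors computed it. The mapped reads are a count per the file headers. FastQC was named per the submitters' processing notes. The sources used here do not give the aligner, the counter, the genome build or the annotation.

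The tables were joined by identifier. Of 21508 genes listed in both, 7837 had at least 100 reads in both, 2287 of these were left out for fractional reads (tolerance 1e-06) and 6 for a peak above the reads. At this depth 100 reads equal 8.06 RPM in anther and 8.67 RPM in leaf. Shares carry Wilson and differences Newcombe 95% intervals, computed with Python 3.11.15 and pandas 2.3.3 and tested on simulated data. The simulation drew the peak with a set share of the gene's reads, so it did not test a peak picked as the highest. Reads need not be independent molecules. Reads minus peak height is called the other reads. With 1 library per tissue no p-value was computed. The members, the rule and the comparisons were chosen with earlier results of these data known. The 2 largest differences per direction are named by a written rule. Other genes are given without identifier, and the ones described singly were picked after their values were seen. No sequence table was used here.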

Additional observations from a re-analysis of the deposited data

Results flagged for a closer look

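Peak heights above the gene's own read number, which stand outside the comparison of shares, occurred in 6 genes with at least 100 whole reads in both libraries, 5 in the anther and 3 in the leaf library, 2 of them in both. The heights ranged from 105% to 577% of the reads in the library where the ratio was highest, and 2 of the 6 had a listed gene nearby on the same strand with the same peak height. In these entries the peak height cannot be a part of the reads counted for the gene. How the height was computed is not stated, and the reason was not tested.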

How the results depend on the processing

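The 119 members depended strongly on depth and threshold. Their number was 351 with at least 50 reads, 23 with at least 200 and 4 with at least 500, and it was 791 at 5 points, 26 at 15 and 10 at 20. A ratio of shares of at least 1.5 gave 28 genes, an interval to one side of 0 gave 307 and one beyond 10 points gave 8. Version 1 models held 68 and version 2 models 51, by their construction. Keeping fractional reads gave 172, no limit on the peak 124, whole peak heights 116 and no peak shared with a neighbour 115, the last 2 and the split by version having been added after seeing the data. The percentage with the higher share in anther, 44.5%, was 25% of 4 genes at 500 reads. It was 51.2% at 5 points (405 genes against 386), 53.8% at 15 points (14 against 12) and 60.0% at 20 points (6 against 4). The larger side thus differed between thresholds, by few genes at 15 and 20 points. Elsewhere the percentage ranged from 39.1% to 50%. The 28 members at least 2-fold apart became 56 at 1.5-fold, 14 at 4-fold, 10 of 23 at 200 reads and 49 of 172 with fractional reads, and 26 to 28 under the other scalings. The 48 members whose peak differed more were 12 of 23 at 200 reads and 49 or 50 under the other scalings. The percentage on chromosomes 10 to 12, 34.5%, was 26.1% at 200 reads and 34.3% with fractional reads. That on strand wat ranged from 50.6% to 60.9%. For level, peak and position, the shares over all eligible genes at these other settings are not given. Whether members differ from eligible genes there was not tested. A ratio of peak to other reads cannot change the direction of the named genes, by its construction. No paired analysis was possible because there was 1 library per tissue, and no library could be left out. Depth limits the members, whose interval had a median half-width of 10.2 points.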

Other observations

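Some genes outside the 119 had a smaller difference with an interval clear of 0. The interval lay to one side of 0 for 215 of the 5425 eligible genes less than 10 points apart, 111 with the higher share in anther and 104 in leaf. Their median difference was 6.01 points and their median smaller read number 436. For equal shares about 5% of genes would do so by construction, under the conditions given above, so the 215 are not read as shifted genes. Over all 5544 eligible genes the interval lay to one side of 0 for 307 (5.54%). Where both libraries had 1000 reads or more it did so for 52 of 466 (11.2%), against 4.46% of genes with 100 to under 150 reads. By version, it did so for 92 of 661 version 1 genes (13.9%) and 215 of 4883 version 2 genes (4.40%), and among genes with at least 1000 reads for 11 of 34 and 41 of 432.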
